A study of Mus musculus with 10 samples.

Results

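Early *Fev* cells made up 1010 of the 57982 cell barcodes with 200 or more genes in 8 single-cell libraries of embryonic mouse pancreas. A member held 2 or more unique molecular identifiers (UMIs, each standing for 1 captured mRNA molecule) of *Fev*, together with 1 or more of *Pax4* or 2 or more of *Neurog3*. In a member *Gcg*, *Sst* and the sum of *Ins1* and *Ins2* each took up less than 1% of UMIs, *Ghrl* less than 0.3%, and *Col3a1* at most 1 UMI. Because these measured values chose the cells, the levels of those genes, and of *Runx1t1*, *Cacna2d1* and *Tox3*, which mark the class, are given as a description and without a test.

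Endocrine cells of the pancreas arise from the epithelial trunk, where a pulse of the basic helix-loop-helix factor Neurog3 commits single cells to the endocrine fate. Neurog3 switches on further regulators, among them the homeodomain factor Pax4, which favours beta and delta cells, and the ETS factor Fev, which is best known from serotonergic neurons. Hormone genes are transcribed last, so a cell that holds *Fev* with *Pax4* or *Neurog3* but little hormone mRNA is placed between the Neurog3 progenitor and the hormone-producing cell.

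7 of the libraries were made from Swiss Webster embryos, taken on 3 embryonic days (E12.5, E14.5, E17.5). All live cells were loaded on the version 1 (v1) kit, with 2 batches at E14.5, whereas the version 2 (v2) libraries were sorted to remove CD140a+ mesenchyme, and the 2 wells of E17.5 v2, which came from 1 suspension, were summed. The last library was E14.5 v2 from Fev-Cre;ROSA26mTmG embryos on a C57BL/6J background, in which Cre from the *Fev* transgene turns a membrane tdTomato reporter into membrane GFP in a cell and its descendants, and GFP+ cells were sorted and supplemented with tdTomato+ ones. Each library was a pool of pancreata, so the pool was the replicate, and kit, sort and depth changed together and cannot be told apart. The matrices held between 15671934 and 127151679 UMIs each, with medians of 2952 to 11783 UMIs per kept barcode, and globin mRNA took up between 0.0129% and 61.1% of the UMIs of a library.

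The members numbered 11 at E12.5 v1, 132 at E12.5 v2, 47 and 64 in the E14.5 v1 batches, 219 at E14.5 v2, 23 at E17.5 v1, 88 at E17.5 v2 and 426 in Fev-Cre. They had a median of 6451.5 UMIs and 2646 genes per cell. *Pax4* alone let in 513 cells (50.8%), *Neurog3* alone 117 (11.6%) and both together 380 (37.6%). Within the members *Neurog3* ranged widely, with no UMI in 424 cells and 5 or more in 345. At the edge of the rule stood 163 members with exactly 2 *Fev* UMIs, 290 admitted by a single *Pax4* UMI and 35 by 2 *Neurog3* UMIs alone. Just outside it were 201 cells that had 1 *Fev* UMI and otherwise met every condition.

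Neighbouring classes passed the same limits on genes, hormones and *Col3a1*. *Neurog3* cells without *Fev* (2360 cells) held 2 or more *Neurog3* UMIs and no *Fev*, and later *Fev* cells (1055 cells) held 2 or more *Fev* UMIs, no *Pax4* and at most 1 of *Neurog3*. Of the later cells, 113 had 1 *Neurog3* UMI. Levels below are given as CPM: all UMIs of 1 class in 1 library were pooled, and a gene's UMIs were scaled to 1000000 of that pool.

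Of its 5 markers, *Fev* and *Pax4* belong to the rule. It leaves no *Fev* in *Neurog3* cells and no *Pax4* in later *Fev* cells. *Runx1t1* and *Cacna2d1*, which the rule does not use, had higher medians in the class than in both neighbours. *Fev* lay between 504 and 2584 CPM over the 8 libraries (median 1242) in early *Fev* cells and between 363 and 1921 (median 929) in later ones, and by the rule it was at 0 before. *Pax4* lay at 190 to 594 CPM (median 356) in the members and at 120 to 385 (median 248) in *Neurog3* cells, so the ranges overlapped. *Neurog3* itself stood at 541 to 3407 CPM (median 1153) in the members and at 1264 to 4843 (median 3786) before *Fev*. Of the other markers, *Runx1t1*, a transcriptional corepressor, had a median of 323 CPM in the members, 64.9 in *Neurog3* cells and 141 in later *Fev* cells. *Cacna2d1*, an auxiliary calcium channel subunit, stood at 381, 178 and 157 CPM. *Tox3*, an HMG-box nuclear factor, stood at 375, 391 and 225 CPM and did not set the members apart from *Neurog3* cells.

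RNA of other cell types was present in the members. Acinar genes summed to between 30.2 and 11030 CPM, globins to between 5.55 and 56460 CPM, ductal genes to between 196 and 2758 CPM, and mesenchymal genes to between 22.9 and 173 CPM over the libraries, with every gene of these lists seen. Of the members, 79 (7.82%) were suspected doublets, with 3 or more UMIs of endothelial, immune, glial or collagen genes, 2% or more acinar or 5% or more globin UMIs, 42 of them in E14.5 v2. Between pairs of matrices at most 155 kept barcodes were shared, and 1 barcode was a member in both of its libraries.

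Among 8056 endocrine-lineage cells, defined by *Neurog3*, *Fev* or a hormone, early *Fev* cells were a minority everywhere. At E14.5 they were 14.6% (exact 95% interval 10.9 to 18.9) and 22.9% (18.1 to 28.2) in the v1 batches, and 13.2% (11.6 to 14.9) in v2. At E12.5 they were 9.91% (5.05 to 17.04) in v1 and 10.6% (8.92 to 12.4) in v2, and at E17.5 10.1% (6.53 to 14.8) and 4.77% (3.84 to 5.85), the last from wells with 29 and 59 members. Each E14.5 library was above each library of the other days at full depth. With cells thinned to 2000 UMIs before the rule this did not hold, since E14.5 v2 (5.75%) was below E12.5 v1 (6.06%) and E17.5 v1 (6.11%). The mean was 16.9% ± 5.24 (SD, n = 3) at E14.5, 7.45% ± 3.79 (n = 2) at E17.5 and 10.2% ± 0.466 (n = 2) at E12.5. A two-sided exact permutation test, which took no account of kit, gave p = 0.2 for either day against E14.5. This is the smallest p these numbers allow.

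As a share of all hormone-low *Fev* cells the day means lay closer together, at 55.3%, 53.3% and 51.9% for E12.5, E14.5 and E17.5. They were 53.4%, 51.6% and 55.0% of such cells at E14.5 (v1 batches, then v2), 45.8% and 64.7% at E12.5, and 39.7% and 64.2% at E17.5 (v1, then v2). The ranges overlapped, with exact permutation p = 0.8 for both days against E14.5. In the Fev-Cre sort they were 18.1% (16.5 to 19.7) of endocrine-lineage cells and 41.3% of *Fev* cells. The intervals cover counting error only.

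**Figure D1:**
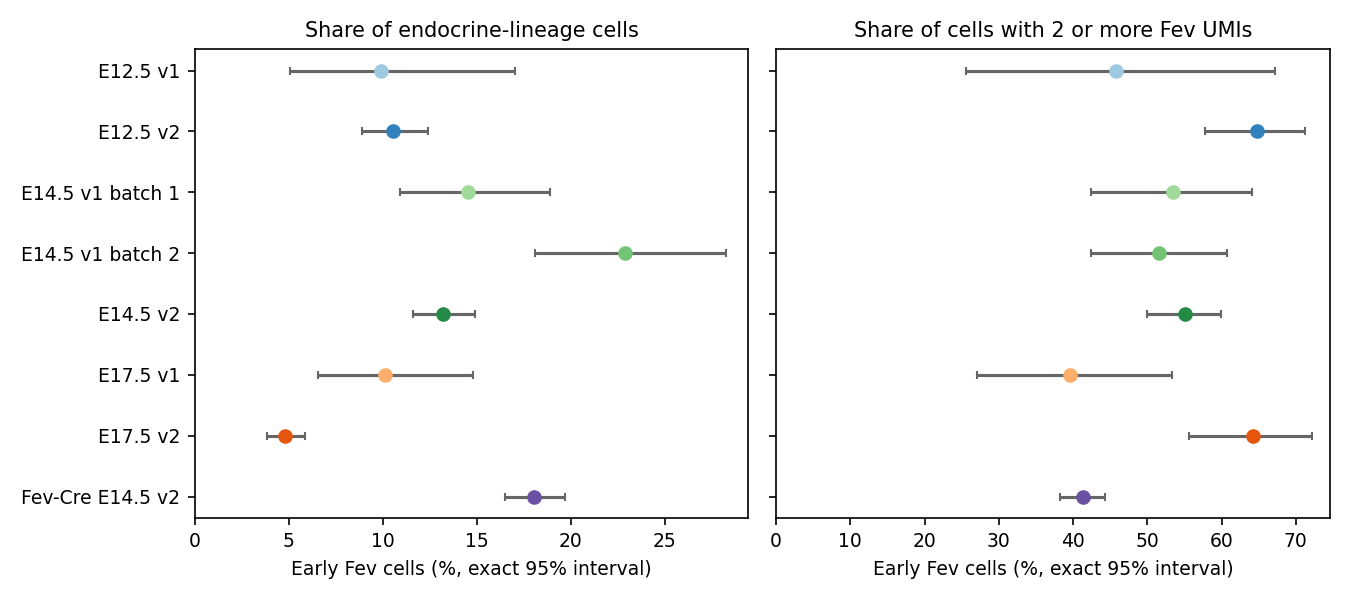
Early *Fev* cells per library, as a percentage of endocrine-lineage cells (left) and of hormone-low cells with 2 or more *Fev* UMIs (right). Points are libraries and bars exact 95% binomial intervals; the highest share of endocrine-lineage cells was 22.9% in E14.5 v1 batch 2 and the lowest 4.77% at E17.5 v2.

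*Fev* sits at chr1:74881509-74885419 on the minus strand (GRCm38), and the nearest gene on its 5′ side is *Cryba2*, a beta-gamma-crystallin family gene at chr1:74889934-74893143 on the same strand, with 4514 bases between them. Of 7 other protein-coding genes within 100 kb of *Fev*, *Cryba2* alone was abundant enough to test between classes. The rest lay at or below a mean of 13.2 CPM in the members. The promoters of both genes are printed here from RefSeq (build GRCm38.p6, 250 bases before the start to 50 after it), because *Cryba2* was among the genes that differed most from *Neurog3* cells. Printed too are those of *Chgb* and *Neurod2*, among the genes most raised against *Neurog3* cells and against later *Fev* cells, respectively. Capitals mark every E-box, the letters CANNTG to which basic helix-loop-helix proteins bind, and N is any base. The motif reads the same on both strands, and 72.3% of 32851 mouse promoters of this length held at least 1.
Fev, chr1:74885359-74885658, minus strand: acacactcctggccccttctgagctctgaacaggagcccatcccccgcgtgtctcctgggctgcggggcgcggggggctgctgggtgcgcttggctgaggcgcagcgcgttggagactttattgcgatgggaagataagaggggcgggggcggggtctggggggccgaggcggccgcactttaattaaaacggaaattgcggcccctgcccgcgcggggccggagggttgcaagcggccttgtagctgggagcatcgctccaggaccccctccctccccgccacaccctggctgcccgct
Cryba2, chr1:74893094-74893393, minus strand: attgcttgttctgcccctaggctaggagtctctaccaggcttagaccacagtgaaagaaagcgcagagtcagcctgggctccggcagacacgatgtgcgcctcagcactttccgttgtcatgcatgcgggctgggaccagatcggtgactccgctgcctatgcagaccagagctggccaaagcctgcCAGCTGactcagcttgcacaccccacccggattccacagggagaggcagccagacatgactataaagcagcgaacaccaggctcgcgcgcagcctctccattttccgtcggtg
Chgb, chr2:132781392-132781691, plus strand: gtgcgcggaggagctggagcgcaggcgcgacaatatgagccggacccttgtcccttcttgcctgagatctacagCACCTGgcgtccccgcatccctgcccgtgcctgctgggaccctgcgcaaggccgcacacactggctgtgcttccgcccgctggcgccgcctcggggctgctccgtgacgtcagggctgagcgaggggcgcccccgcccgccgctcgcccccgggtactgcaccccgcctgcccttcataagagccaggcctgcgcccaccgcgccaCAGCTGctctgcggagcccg
Neurod2, chr11:98329596-98329895, minus strand: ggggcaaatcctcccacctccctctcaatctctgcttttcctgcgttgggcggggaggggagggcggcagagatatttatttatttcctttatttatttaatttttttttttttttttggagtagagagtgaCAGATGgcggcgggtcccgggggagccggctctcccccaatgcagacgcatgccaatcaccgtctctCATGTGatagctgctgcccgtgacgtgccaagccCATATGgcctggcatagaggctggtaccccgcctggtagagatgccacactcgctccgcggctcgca

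The *Fev* window held no E-box, *Cryba2* held 1, *Chgb* 2 and *Neurod2* 3. One of those of *Neurod2* was CAGATG, a form that with its complement CATCTG is found in 17.2% of promoters. These are matches of letters in a short window, and *Pax4* and *Runx1t1* are named only.

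The first comparison set the members against *Neurog3* cells without *Fev*, of which a mean of 48.4% over libraries held a *Pax4* UMI at full depth. Among the genes that rose were granins, prohormone-processing enzymes and pan-endocrine transcription factors. Genes of the trunk epithelium, the cell cycle and Notch signalling were among those that fell. UMI sums per library and class were compared with edgeR's quasi-likelihood test with library as a block, and a gene was called at a Benjamini-Hochberg adjusted p under 0.05 and a change of at least 2-fold. Of 6171 genes tested, 293 were higher in early *Fev* cells (4.75%) and 239 lower (3.87%).

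Granins and processing enzymes were higher without exception, in 13 of the 13 genes tested, with a median log2 fold change of 2.85 against -0.01 over all genes. *Chgb* (chromogranin B, a structural protein of secretory granules) lay between 4176 and 16240 CPM (median 7150) in the members and between 0 and 357 CPM (median 183) in *Neurog3* cells. The groups did not overlap, and the log2 fold change was 5.37 ± 0.35 (SE, adjusted p = 2.75e-11 by edgeR). *Pcsk1n* (an inhibitor of prohormone convertase) rose from a median of 37.4 to 596 CPM, with a log2 fold change of 3.55 and the same direction in 8 of 8 libraries. *Pcsk2*, the convertase that cuts proglucagon, rose from 16.5 to 221 CPM.

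In the exocytosis list 10 of 17 tested genes were higher and none lower, with a median log2 fold change of 1.18. *Snap25*, a subunit of the complex that fuses granules to the membrane, rose by 2.97 on the log2 scale to a median of 52.6 CPM. Of 5 ion channel genes tested 4 were higher, among them *Kcnmb2* at 3.16 and *Abcc8*, the sulphonylurea receptor subunit, at 1.85.

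Of 27 endocrine transcription factors tested, 12 were higher and 2 lower. *Pax6*, required for islet hormone genes, lay at 203 to 683 CPM (median 590) in the members and at 16.6 to 92.2 CPM (median 40.8) before *Fev*. The groups did not overlap, and the log2 fold change was 3.47 ± 0.14 (SE, adjusted p = 9.83e-15 by edgeR). *Pou3f4*, known from alpha cells, rose from a median of 31.4 to 198 CPM, *St18* from 27.0 to 116 CPM and *Neurod1* from 321 to 694 CPM. The factors that fell were *Sox4*, by 1.51 on the log2 scale, and *Neurod2*, by 1.20. *Nkx2-2*, *Rfx6* and *Insm1* stood at medians of 328, 86.6 and 116 CPM in the members and at 363, 48.4 and 196 CPM before *Fev*.

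*Cryba2*, the neighbour of *Fev*, lay at 260 to 1553 CPM (median 960) in early *Fev* cells and at 6.08 to 74.8 CPM (median 37.4) in *Neurog3* cells. The classes were apart in every library, with a log2 fold change of 4.37 ± 0.17 (SE, adjusted p = 9.15e-15 by edgeR). *Vdr*, the vitamin D receptor, rose from a median of 5.08 to 82.4 CPM (log2 fold change 3.99). *Prss50*, a protease gene better known from testis, had 5 UMIs in all *Neurog3* cells together and a median of 26.3 CPM in the members. *Usp18*, an interferon-inducible isopeptidase, rose by 4.29, and *Entpd3*, an ectonucleotidase of islet cells, by 4.17.

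Fev is a regulator of the serotonergic programme in the hindbrain, and 4 genes of a serotonin list were abundant enough to test. *Gch1*, which makes the cofactor of tryptophan hydroxylase, rose from a median of 29.1 CPM to 589 CPM without overlap (log2 fold change 3.52 ± 0.20, adjusted p = 2.7e-12 by edgeR). *Ddc*, the decarboxylase that completes serotonin and dopamine synthesis, rose from 42.6 to 118 CPM, again without overlap. Tryptophan hydroxylase itself was scarce: *Tph1* had a median of 0.433 CPM and a highest value of 10.1 CPM in the members, and *Tph2* was listed at 0 in every library.

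Trunk and ductal genes fell in 9 of 17 genes tested and rose in none, with a median log2 fold change of -1.04. *Spp1*, secreted by the trunk, dropped from 884 to 11520 CPM (median 2563) to between 13.4 and 1918 CPM (median 272). The ranges overlapped between libraries, although the fall was seen in each of them (log2 fold change -2.88 ± 0.55, adjusted p = 0.000218 by edgeR). *Sox9*, the trunk regulator, fell by 1.04. In the Notch list *Dll1*, a ligand that Neurog3 induces, fell by 2.20 and *Hes1*, the repressor downstream of the receptor, by 2.16, of 7 tested.

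Cell cycle genes were lower as well, in 10 of 17 genes of S phase and 9 of 19 of G2 and M, with none higher. Summed S-phase genes ran from 256 to 1706 CPM in the members and from 418 to 1957 CPM before, so their ranges overlapped widely. E14.5 v2 was an exception for the G2 and M genes, which summed to 2308 CPM in the members and 1936 CPM in *Neurog3* cells. *Cdkn1b*, a cyclin-dependent kinase inhibitor, rose from a median of 22.2 to 47.0 CPM, and *Cdkn1a*, another one, fell from 990 to 494 CPM.

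The stage-specific list of *Neurog3* cells fell in 9 of 18 genes. *Gadd45a*, a growth-arrest gene, went from 605 to 2329 CPM (median 1408) to 219 to 708 CPM (median 331), a log2 fold change of -2.09 ± 0.15 (adjusted p = 1.45e-10 by edgeR). *Tmem171*, *Cxcl12* and *Amotl2* fell by 3.17, 2.97 and 2.40. In the Hippo list 4 of 6 genes were lower, with *Amotl2* and the YAP target *Cyr61* among them. This list of *Neurog3*-stage genes, like the alpha and beta lists below, was chosen by the study partly on these samples, and its direction is not independent evidence.

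Genes of the alpha and beta branches were both found in these hormone-low cells. Of the alpha list 10 of 13 tested genes were higher than in *Neurog3* cells, and of the beta list 9 of 14 were higher and 1 lower. *Peg10*, of the alpha list, had a median of 40.2 CPM in the members, 3.15 CPM before and 210 CPM in later *Fev* cells. *Pdx1*, required in beta cells, had a median of 235 CPM (156 to 349) in the members, 99.4 CPM before and 329 CPM later. *Mnx1*, a beta-cell homeodomain factor, stood at 24.8, 0.0837 and 54.6 CPM. *Slc2a2*, the glucose transporter, was the member of the beta list that fell, by 1.27.

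With each cell thinned to 2000 UMIs, which left out 4 members, *Pou3f4* was detected in 29.3% ± 4.59 (SD, n = 8 libraries) of members, 21.5% of alpha cells and 0.561% of beta cells, and in 0.502% of mesenchymal cells, which serve as background. *Nkx6-1* was detected in 50.7% ± 13.3 of members, 11.7% of alpha cells and 48.1% of beta cells, and 2.31% of mesenchymal cells. Without thinning the members' shares were 46.8% and 74.8%. Unlike *Pou3f4*, *Nkx6-1* was not among the genes called higher in the members than in *Neurog3* cells.

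Transcripts of opposite branches met in the same cells. *Pou3f4* and *Nkx6-1* were both detected in 156 of 1006 thinned members (15.5%), where the product of their separate shares was 14.0%. Counts per cell are low, and the share is given without a test.

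The next comparison set the members against later *Fev* cells, which held no *Pax4* UMI and at most 1 of *Neurog3*. Fewer genes differed: 59 of 6171 were higher in early *Fev* cells (0.956%) and 35 lower (0.567%). Among those higher were *Neurog3*-stage and Notch-pathway genes, and among those lower peptide, granule and alpha- and beta-branch genes. The members are shared with the first comparison, so values are given side by side. Without the library term 30 genes were called in place of 94. With cells thinned to 2000 UMIs before the rule was applied 38 were, of 1783 tested. Of the 38, 22 were shared with the full-depth calls. Thinning lowered the members' share of *Fev* cells in each library, from 41.3% to 23.6% in Fev-Cre. Median depth was 9002.5 UMIs in members and 6301 in later cells at E12.5 v2, and 7342 and 5342 at E14.5 v2. Later cells were the deeper class in E14.5 v1 batch 2, E17.5 v1 and E17.5 v2.

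*Neurod2*, a neurogenic relative of *Neurog3*, had the largest fold change among genes that differed alike in every library. It lay at 11.8 to 392 CPM (median 82.0) in the members, at 11.2 to 460 CPM (median 159) in *Neurog3* cells and at 0 to 9.23 CPM (median 0.341) in later *Fev* cells, where only 9 UMIs were counted in all. Members and later cells did not overlap (log2 fold change 5.43 ± 0.51, adjusted p = 4.95e-07 by edgeR). After thinning it was detected in 15.0% of members, 0.971% of later *Fev* cells and 0.202% of mesenchymal cells.

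Of the *Neurog3*-stage list 9 of 18 genes were higher in the members than in later *Fev* cells and none lower (median log2 fold change 0.98). The classes were set apart by *Pax4* and *Neurog3* UMIs. Higher values of genes that accompany *Neurog3* are therefore not independent of the rule. *Gadd45a* stood at 219 to 708 CPM against 35.0 to 175 CPM (median 72.7), again without overlap (log2 fold change 2.04 ± 0.18, adjusted p = 3.7e-07 by edgeR). *Btbd17* was higher by 2.36 and *Plk3* by 2.00. Notch-pathway genes were higher in 3 of 7, namely *Mfng*, a glycosyltransferase that modifies the receptor, by 1.65, *Dll3*, a ligand that acts within the cell, by 1.12, and *Hes6*, by 1.02. *Cbfa2t3* and *Cbfa2t2*, the paralogues of *Runx1t1*, were higher by 1.16 and 1.01, 2 of 14 genes in the list of RUNX partners and corepressors.

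Peptide and granule genes were lower in the members. *Iapp*, the islet amyloid peptide, lay at 0 to 1089 CPM (median 132) in early and at 88.8 to 11350 CPM (median 1159) in later *Fev* cells. It was lower in 8 of 8 libraries though the ranges overlapped (log2 fold change -3.03 ± 0.51, adjusted p = 0.000471 by edgeR). *Pyy* (peptide YY) had medians of 1869 and 5051 CPM, *Gast* (gastrin) of 52.4 and 226 CPM, and *Ttr* (transthyretin) of 1882 and 4300 CPM. *Cck*, cholecystokinin, went the other way, with medians of 1028 and 397 CPM and a log2 fold change of 1.41. Of the granin list 4 of 13 genes were lower, *Scg2*, *Resp18*, *Pcsk2* and *Scg3*, while *Chgb* had medians of 7150 and 8525 CPM and a log2 fold change of -0.17 ± 0.28 (adjusted p = 0.865 by edgeR).

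Branch genes were lower in 6 of 13 of the alpha list and 3 of 14 of the beta list. *Peg10*, an imprinted retrotransposon-derived gene of the alpha list, lay at 14.3 to 312 CPM (median 40.2) against 69.0 to 864 CPM (median 210), a log2 fold change of -1.92 ± 0.24 (adjusted p = 2.53e-05 by edgeR). *Tmem27*, the amino acid transporter subunit collectrin, had medians of 109 and 498 CPM and was lower in 8 of 8 libraries. *Irx2* was lower by 1.60 and *Ppp1r1a*, of the beta list, by 1.48. In this comparison edgeR called none of 17 S-phase and 19 G2 and M genes, with 0 and 1 at an unadjusted p under 0.05, and DESeq2 called none.

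**Figure D2:**
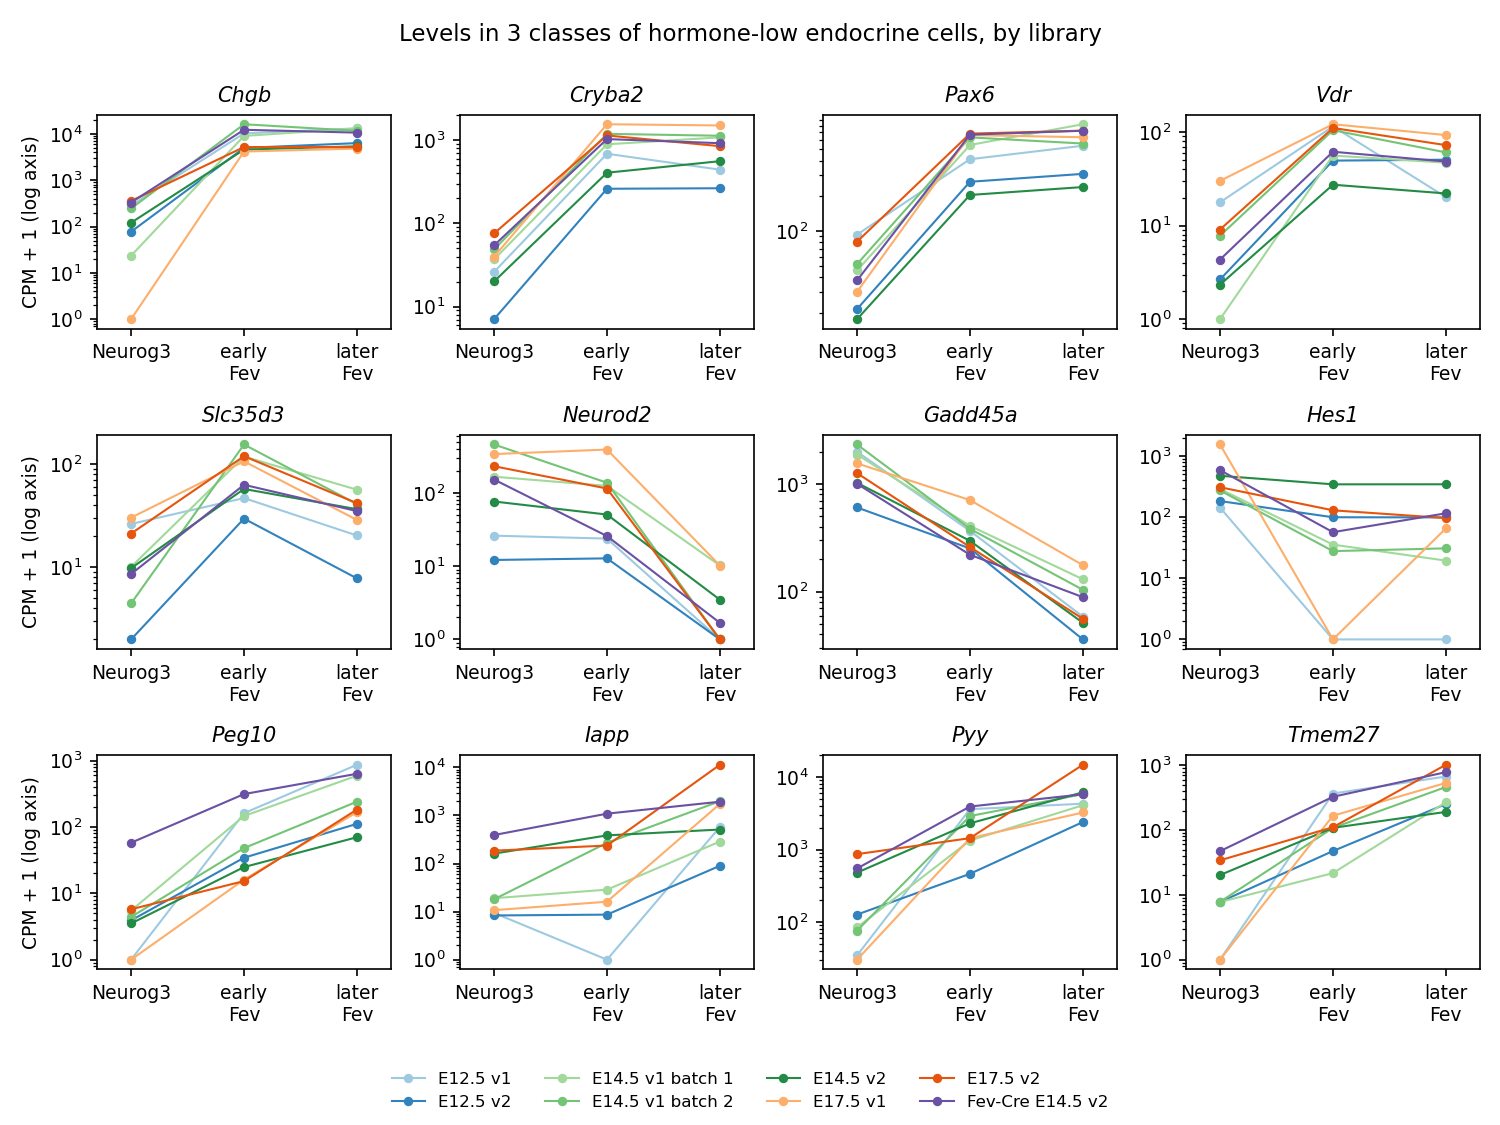
CPM plus 1, on log axes that differ between panels, of 12 genes in *Neurog3* cells without *Fev*, early *Fev* cells and later *Fev* cells, with 1 line per library. *Chgb*, *Cryba2* and *Pax6* rose into the early *Fev* class and overlapped between early and later cells, *Neurod2* fell from a median of 82.0 CPM there to 0.341 CPM in later cells, and *Peg10*, *Iapp*, *Pyy* and *Tmem27* were higher in later cells than in the members in each library.

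Against the mean of both neighbours, 86 of 6171 genes were higher in early *Fev* cells (1.39%) and 17 lower (0.275%). Most of the higher ones, such as *Chgb* (2.60), *Cryba2* (2.19) and *Pax6* (1.65), overlapped with later *Fev* cells, so this contrast does not by itself mark a peak. *Slc35d3*, an orphan nucleotide sugar transporter, was called higher against each neighbour. It lay at 28.5 to 154 CPM (median 83.7) in the members, at 0.967 to 29.1 CPM (median 8.85) before and at 6.72 to 55.4 CPM (median 34.7) later. The members had the highest value of the 3 classes in 8 of 8 libraries, with log2 fold changes of 2.95 ± 0.24 and 1.20 ± 0.23 (adjusted p = 9.46e-10 and 0.00147 by edgeR). *Cacna1h*, a T-type calcium channel, was higher than before by 1.44 and than later by 0.81, the latter under the 2-fold limit.

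A trough was seen for few genes. *Igfbp7*, a secreted binding protein, lay at 10.1 to 30.1 CPM (median 18.98) in the members, at 27.1 to 350 CPM before and at 28.2 to 276 CPM later. Its log2 fold changes were -1.496 ± 0.19 and -1.06 ± 0.21 (adjusted p = 1.61e-06 and 0.00243 by edgeR), and it was lower than the mean of both in 8 of 8 libraries. Of the markers of other cell types, the immune, endothelial, acinar and mesenchymal lists had their lowest mean in the members, the last of these by little (84.5, 69.9 and 75.1 CPM before, in and after), whereas erythroid genes had their highest mean there and ductal and neural genes lay between both neighbours. The ranges over libraries overlapped for each of these lists. Acinar sums were higher in the members than in later *Fev* cells in E12.5 v1 and both E14.5 v1 batches, and lower in the other libraries. The values of E17.5 v2 were 1965 CPM in the members and 9450 CPM in later *Fev* cells. Immune genes summed to a mean of 195.5 CPM in *Neurog3* cells, 32.1 CPM in the members and 121.4 CPM in later *Fev* cells, and endothelial genes to 75.4, 62.9 and 142.8 CPM. Single libraries weighed on these means. The immune sum was 815.9 CPM in *Neurog3* cells of E17.5 v1, and the endothelial sum 521.9 CPM in later *Fev* cells of E12.5 v2. *Egfl7*, the 1 endothelial gene tested, was below the mean of both neighbours by 0.51 ± 0.15 on the log2 scale (adjusted p = 0.0279 by edgeR), short of the 2-fold limit, and no immune gene was abundant enough to test. The part of these cells in the trough was not tested. *Cd59a*, which inhibits complement, had a median of 2.26 CPM between 24.8 and 22.9 CPM. *Hes1* was lower than the mean of both neighbours by 1.13 ± 0.33 (adjusted p = 0.0254 by edgeR), and its log2 fold change against later cells alone was -0.11 ± 0.38.

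The members were themselves split at 2 *Neurog3* UMIs, in the 6 libraries with 10 or more cells on either side. Cells with 0 or 1 *Neurog3* UMI were members by their *Pax4*. Of 5748 genes tested, 32 were higher in *Neurog3*-rich members (0.557%) and 11 lower (0.191%). The list of *Neurog3*-stage genes was higher in 5 of 15 and lower in none, with a median log2 fold change of 0.92 against 0.00 over all genes. The split was made on *Neurog3* itself, so the direction of this list, and of other genes that accompany *Neurog3*, is not independent evidence.

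*Neurod2* again stood out. It lay at 18.4 to 289 CPM (median 118) in *Neurog3*-rich and at 0 to 56.8 CPM (median 12.8) in *Neurog3*-poor members. It was higher in 6 of 6 libraries, with a log2 fold change of 3.82 ± 0.29 (adjusted p = 8e-08 by edgeR). *Gadd45a* was at 346 to 711 CPM against 57.1 to 170 CPM without overlap (log2 fold change 2.04 ± 0.14, adjusted p = 4.06e-08 by edgeR), as was *Cbfa2t3* at 73.0 to 125 CPM against 0 to 36.9 CPM (1.95 ± 0.20). *Lingo1*, a neuronal membrane protein gene, did not overlap either, at 31.0 to 65.3 CPM against 3.81 to 18.9 CPM, and *Prom1*, a membrane glycoprotein of epithelial progenitors, was higher by 1.35 without overlap. *Cdkn1a* and *Gadd45g*, both growth-arrest genes, were higher by 1.08 and 1.16.

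The 11 lower genes included hormone and globin genes. Of 6 hormone and peptide genes 3 were called lower, *Gast* by 1.78 (5 of 6 libraries), *Ppy* by 1.70 (4 of 6) and *Iapp* by 1.15 (4 of 6). Of 4 globin and erythroid genes 2 were, *Hbb-bt* by 2.09 (5 of 6) and *Hbb-bs* by 1.86 (4 of 6), and without the suspected doublets neither was called, whereas *Gast*, *Ppy* and *Iapp* still were. *Sphkap*, an anchoring protein gene for protein kinase A, lay at 8.26 to 53.2 CPM (median 19.1) against 47.0 to 90.9 CPM (median 52.6), with overlap between libraries. *Usp18*, *Sphkap* and *Zcchc18* were each lower in 6 of 6 libraries, by 1.097, 1.085 and 1.046 on the log2 scale. Of 11 granin and processing genes 8 were lower at an adjusted p under 0.05 by edgeR, each by less than the 2-fold limit, so none was called. *Chgb* had a log2 fold change of -0.72 ± 0.08 and *Pcsk1n* of -0.92 ± 0.09 (adjusted p = 6.37e-06 and 1.39e-06 by edgeR), both lower in 6 of 6 libraries. Pan-endocrine *Pax6* had a log2 fold change of -0.20 ± 0.10 between these cells (adjusted p = 0.392 by edgeR) and *Nkx6-1* of 0.03 ± 0.08.

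The calls of the split depended on the library term. Without it 2 genes were called in place of 43. When cells were thinned to 2000 UMIs before the rule, 7 genes were higher and 12 lower, and 6 of the 19 were shared with the full-depth calls. Thinning also changed which cells passed the rule and left 955 genes tested in place of 5748, so depth cannot be told apart from these.

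**Figure D3:**
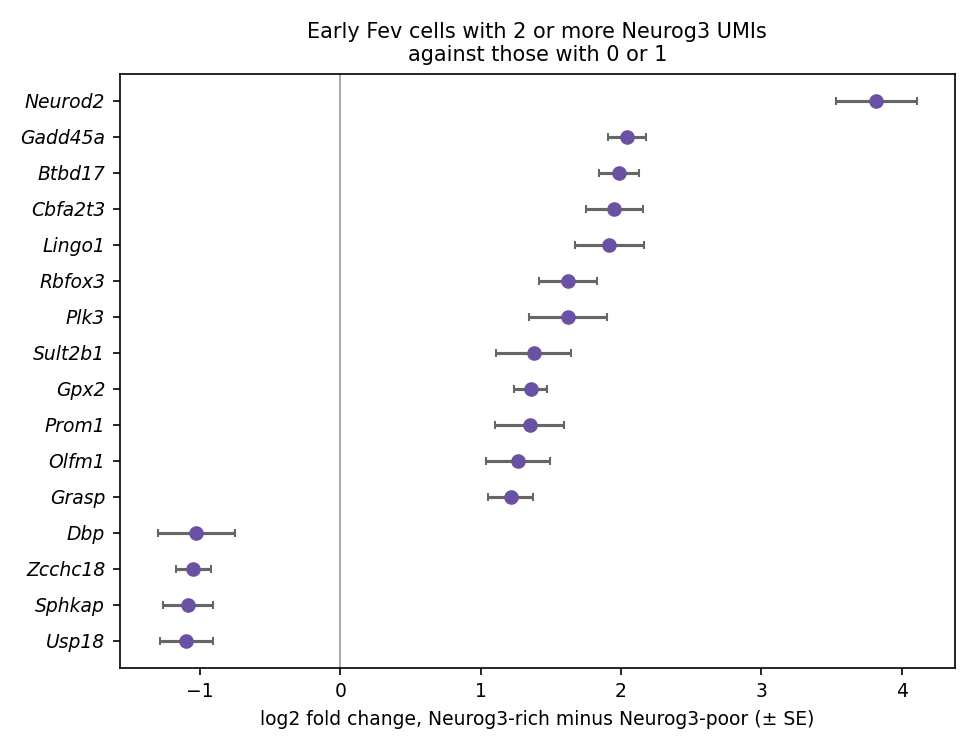
Log2 fold change ± SE, from edgeR over 6 libraries, of early *Fev* cells with 2 or more *Neurog3* UMIs minus those with 0 or 1, for genes called and changed alike in every library (up to 12 in each direction). *Neurod2* lies at 3.82, the other 11 higher genes between 1.21 and 2.04, and the 4 lower genes drawn between -1.097 and -1.02.

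In the Fev-Cre library the reporter mRNA was a readout that the rule did not use directly. Its Cre comes from the *Fev* transgene and the classes were set by *Fev* UMIs. The order of the classes is therefore not independent of the rule. The library was sorted for GFP+ cells and supplemented with tdTomato+ ones, so the sort can set these shares. *eGFP* was detected in 381 of 426 members (89.4%, exact 95% interval 86.1 to 92.2). The share was 22.6% in *Neurog3* cells without *Fev* (57 of 252), 98.0% in later *Fev* cells, 99.8% in alpha cells and 99.7% in beta cells. Mesenchymal cells, in which *Fev* averaged 8.8 CPM, had *eGFP* in 20.1% (18.3 to 21.9), close to the share in *Neurog3* cells. Median depth was 6711 UMIs in members, 7553.5 in *Neurog3* cells and 7188 in mesenchymal cells, so the members were the shallowest of these.

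Within the members the reporter followed *Neurog3*. *eGFP* was detected in 96.9% of members with no *Neurog3* UMI, in 95.9% with 1, in 91.4% with 2 to 4, in 66.0% (51.7 to 78.5) with 5 to 19 and in 61.3% (42.2 to 78.2) with 20 or more. Its level went from 1937 CPM with none to 559 CPM with 20 or more. The last 2 groups lay below the interval of the first, and their share was still above that of *Neurog3* cells and of mesenchyme. By *Fev* itself the order was slight, at 93.2% with 2 or 3 *Fev* UMIs, 89.1% with 4 to 7 and 87.2% with 8 or more. *tdTomato* was detected in 4.93% of members and 10.9% of mesenchymal cells. This was 1 library, so the values carry counting error only, and no test was made.

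**Figure D4:**
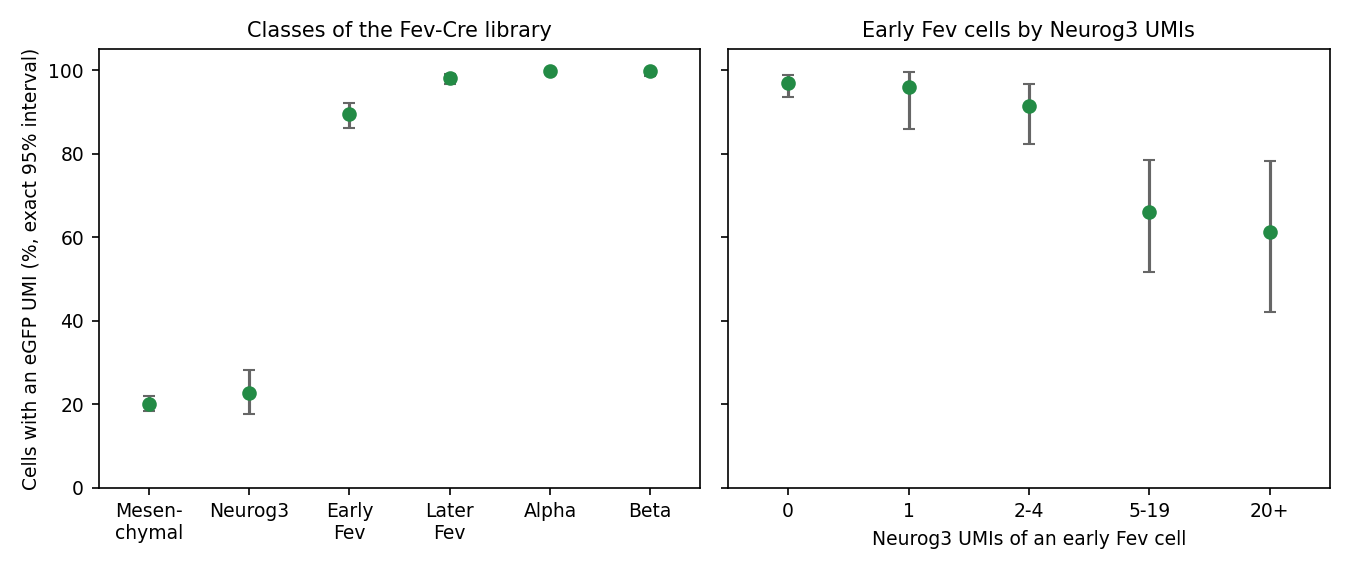
Percentage of cells with at least 1 *eGFP* UMI in the Fev-Cre library by class (left) and, for early *Fev* cells, by their *Neurog3* UMIs (right), with exact 95% binomial intervals. The share rises from 22.6% in *Neurog3* cells to 89.4% in the members and 98.0% in later *Fev* cells, and within the members falls from 96.9% to 61.3% as *Neurog3* UMIs rise.

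By day, with kit as a covariate and the Fev-Cre library left out, 16 of 5565 genes were higher in E17.5 than in E14.5 members (0.288%) and 68 lower (1.22%). At E12.5 against E14.5, 4 were higher (0.0719%) and 8 lower (0.144%). Each day other than E14.5 has 1 library per kit, with 23 and 11 members in v1. Tissue was digested for 10 min at E12.5, 15 min at E14.5 and 30 min at E17.5, so digestion time and embryonic day cannot be told apart. E12.5 v1, E17.5 v1 and E14.5 v1 batch 2 were 1 batch, collected on another day than E14.5 v1 batch 1, and each v2 day was processed on a day of its own, so batch was no term of the fit and processing day and embryonic day cannot be told apart in v2. Within v1 batch 2 each day has 1 library, which allows no test, and without E14.5 v1 batch 1 166 genes were called at E17.5. Without E17.5 v2 edgeR called 0 genes at E17.5, with 326 of 6283 at an unadjusted p under 0.05, and without E14.5 v2 it called 8. Leaving out any other library than these raised the count, to between 114 and 204. DESeq2 called 42 at E17.5.

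Of 11 granin and processing genes tested 2 were higher at E17.5 and none lower, *Pcsk1n* and *Chga*. None of 16 exocytosis genes was called by edgeR or DESeq2, with 6 at an unadjusted p under 0.05 by edgeR. *Pcsk1n* stood at 2487 and 2354 CPM (v1, v2) at E17.5 and at 352, 936 and 370 CPM (v1 batches, v2) at E14.5. *Chga*, chromogranin A, stood at 3558 and 4910 CPM and at 1478, 2435 and 736 CPM. Neither gene overlapped between the days, with log2 fold changes of 2.35 ± 0.39 and 1.83 ± 0.43 (adjusted p = 0.00515 and 0.044 by edgeR). *Neurod2* was higher too, by 1.43 ± 0.32 (adjusted p = 0.0303 by edgeR), although its E17.5 v2 value of 114 CPM was under those of 124 and 138 CPM in the E14.5 v1 batches.

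Of 6 other hormone and peptide genes tested 2 were lower at E17.5 and none higher, *Cck* and *Gast*, while *Pyy* had a log2 fold change of -0.43 ± 0.54 (adjusted p = 0.845 by edgeR). *Cck* stood at 317 and 101 CPM against 1085, 1177 and 424 CPM, a fall of 1.97 on the log2 scale. *Sct*, secretin, was called lower as well and had 3 UMIs at E17.5 against 181 at E14.5, which is 16.8-fold lower (counting interval 5.66 to 82.3), and *Gast* had 2 against 189. *Dlk1*, a Notch-pathway ligand relative, was lower by 2.49, *H19*, a noncoding RNA, by 3.05, *Cdkn1c*, a cyclin-dependent kinase inhibitor, by 2.22, and *Igfbpl1* by 1.84.

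Cell cycle genes were lower in 4 of 16 genes of S phase and 5 of 14 of G2 and M tested. Their sums were lower in each E17.5 library than in each E14.5 library, in part by little. S-phase genes summed to 256 and 339.9 CPM at E17.5 against 1133, 348.8 and 1706 CPM at E14.5 (v1 batches, then v2), and G2 and M genes to 105.5 and 245.6 CPM against 1789, 251.5 and 2308 CPM. E14.5 v1 batch 2 was thus close to E17.5 v2, and the high sums were those of E14.5 v1 batch 1 and E14.5 v2. *Hells* had no UMI in E17.5 members and 194 at E14.5, at least 18.0-fold lower with 3 counts allowed over the group, and *Rrm2* had 1 against 436. *Ccnd2* was lower by 2.40. Of 7 acinar genes tested 3 were lower. The 14 acinar genes summed to 30.2 and 1965 CPM at E17.5 against 843, 3421 and 11030 CPM at E14.5, with overlap between the days. Globins summed to 56210 and 56460 CPM at E17.5 and to 670, 20300 and 9419 CPM at E14.5. The part of these in the differences by day was not tested.

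At E12.5 *Sct* stood at 686 and 258 CPM (v1, v2) in the members against 55.3, 73.8 and 65.4 CPM at E14.5. The days did not overlap (log2 fold change 2.62 ± 0.36, adjusted p = 0.00443 by edgeR). Higher too was *Rtn1*, a reticulon of the endoplasmic reticulum, which stood at 160 and 50.04 CPM against 13.8, 6.71 and 2.17 CPM (4.29 ± 0.68). *Iapp* was at 0 and 7.64 CPM against 27.6, 268 and 384 CPM (-5.80 ± 0.88, adjusted p = 0.0115 by edgeR). The metallothioneins *Mt1* and *Mt2* and the acinar gene *Ctrb1* were among those lower. Genes that respond to dissociation summed to 3156 and 2056 CPM at E12.5 against 7958, 8130 and 3485 CPM at E14.5. Their median log2 fold change was -1.02 against -0.03 over all genes, and edgeR called none of 11, with 8 at an unadjusted p under 0.05, while DESeq2 called 2. Their part in the differences by day was not tested. Without E12.5 v2 1 gene was called and without E14.5 v2 2, and leaving out any of E12.5 v1, E17.5 v1 or an E14.5 v1 batch gave 23 to 53.

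**Figure D5:**
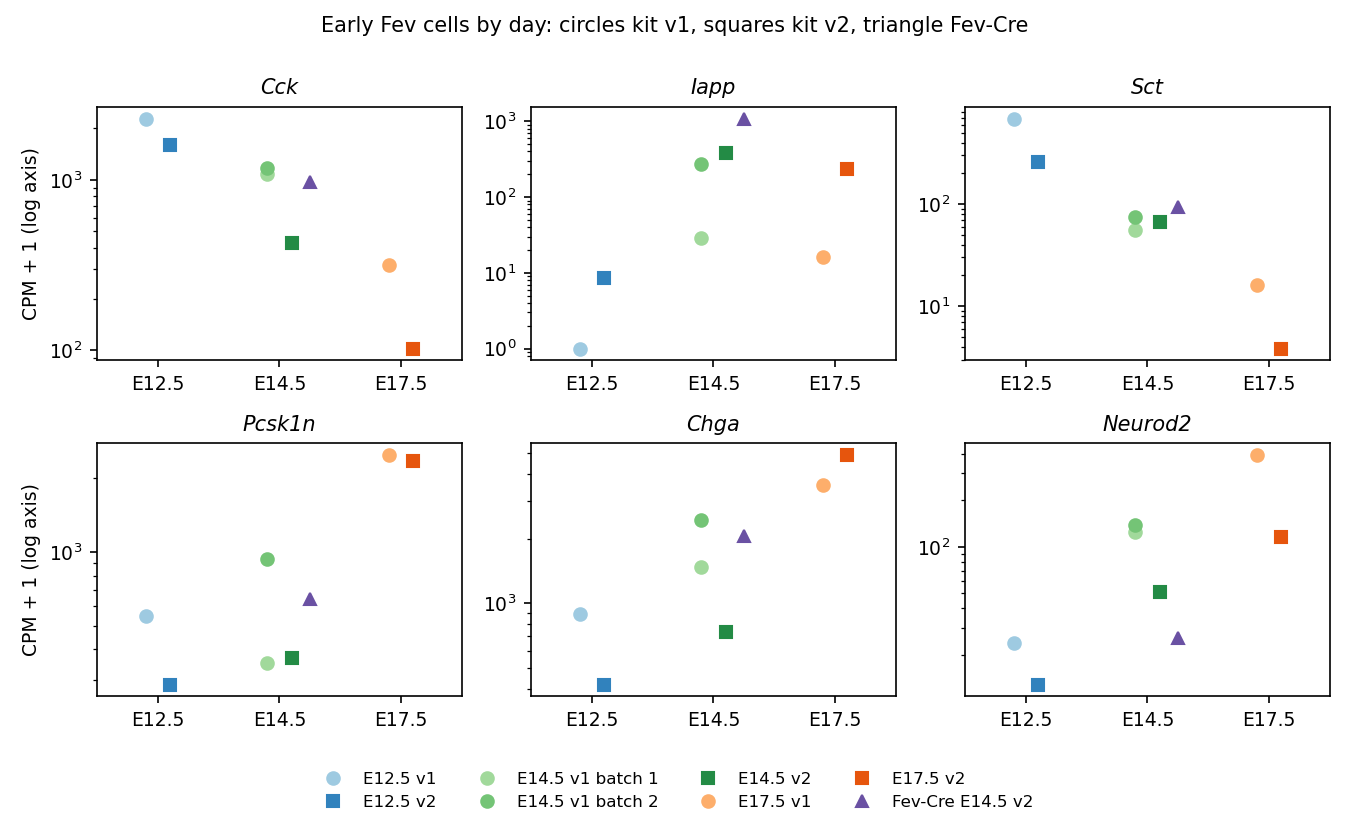
CPM plus 1, on log axes that differ between panels, of 6 genes in early *Fev* cells by embryonic day, with 1 point per library (circles v1, squares v2, triangle Fev-Cre, which was not part of the test). *Pcsk1n* and *Chga* are highest at E17.5, at 2354 CPM or more and 3558 CPM or more, *Sct* falls from 258 CPM or more at E12.5 to 15.1 CPM or less at E17.5, and *Cck* is at 317 CPM or less at E17.5.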

How the data were processed

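The authors deposited UMI counts per gene and cell for each library, made with Cell Ranger 1.1 (v1) or 2.1 (v2) on mm10 by the submitters' processing notes. For Fev-Cre the matrix aligned with *eGFP* and *tdTomato* was used and the other alignment was not used here. No clustering was done: cells were chosen by the stated UMI limits among 66017 barcodes, of which 57982 had 200 or more genes. The gates of the neighbouring classes are definitions made for this work. The members, gene lists and tests were chosen with earlier results of these data known.

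UMIs were summed per library and class (at least 10 cells) over 27716 genes found in every table, and tested with edgeR 4.0.16 in R 4.3.3 (TMM, filterByExpr, quasi-likelihood, Benjamini-Hochberg), with library as a block between classes and kit as a covariate between days. DESeq2 1.42.0 was an alternative. Gate genes and class markers were kept out of the tests. Scripts were tested on simulated counts. Shares, thinning and exact tests used Python 3.11.15, numpy 2.4.6, pandas 2.3.3 and scipy 1.17.1. Other settings tried were upper quartile scaling, no filter on low counts, stricter and looser gates, lower hormone limits, thinned cells, no doublet-suspect cells, 20 cells per class, each kit alone and leaving out each library.

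Pairing by library rests on the shared suspension from which all classes of 1 library were taken. Deviations from class means correlated at 0.207 to 0.834 (median 0.551) between classes of the same library and at -0.492 to 0.542 (median -0.181) between libraries. Doublets were not removed; suspected ones were left out as an alternative. The p-values measure the spread between pools, of which most stages have 1 per kit, and embryo sex was not given in the sources used. Named genes are the gate genes and markers, list members (up to 4 per list and comparison, those of largest fold among called ones or else the most abundant), the 12 called genes of largest fold in each direction that changed alike in every library, and genes the paper names for these cells. *Cyr61*, *Sox9*, *Neurod1*, *Pdx1*, *Cacna1h*, *Cdkn1b* and others of the lists were taken beyond that number after their values were seen. *Prss50*, *Mt1*, *Mt2*, globins and *Rtn1* belong to families with related copies, and their counts are less certain. Gene positions are from GRCm38, and E-boxes were searched in RefSeq promoters. Some genes that enter the counts are not reported here by name.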

Additional observations from a re-analysis of the deposited data

Results flagged for a closer look

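The rise of *Pyy* from *Neurog3* cells without *Fev* into early *Fev* cells differed between the kits by edgeR's test of the class-by-kit term. The log2 fold change was lower by 3.05 in v2 than in v1 (difference -3.05 ± 0.51 SE, adjusted p = 0.0423 over 6171 genes). *Pyy* was the only gene that passed this test. In v1 libraries alone the log2 fold change was 5.00 and in v2 libraries alone 1.91. *Pyy* lay at 29.1 to 83.2 CPM in *Neurog3* cells of the v1 libraries and at 126 to 864 CPM in those of v2, and at 1333 to 3613 CPM and 461 to 3931 CPM in the members. Against later *Fev* cells no gene passed the same test.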

How the results depend on the processing

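Counts of called genes moved with the settings, as did the number of genes tested, so the counts are not shares. Against *Neurog3* cells the count was 532 of 6171 tested. It was 1569 of 19104 with no filter on low counts and 183 of 1783 with cells thinned before the gate. In v1 libraries alone it was 338 of 2659, and in v2 libraries alone 1021 of 10935. With 1 library left out it was 335 to 734 (335 without Fev-Cre, of 5115 tested). Without the replicate block that pairs classes by library it was 424. Against later *Fev* cells and against the mean of both neighbours the numbers tested under each setting were the same. Against later *Fev* cells the count was 94. It was 288 with no filter, 30 without the pairing, 38 with thinned cells, 187 with the looser gate, 53 in v1 alone and 63 to 123 with 1 library left out. Against the mean of both neighbours it was 86 higher and 17 lower, 103 in all. It was 315 with no filter, 51 without the block, 48 with thinned cells, 62 in v1 alone and 68 to 135 with 1 library left out (68 without Fev-Cre). For the split by *Neurog3* the count was 43. It was 157 of 16989 tested with no filter, 2 without the block and 19 of 955 tested with thinned cells. It was 21 and 75 with the stricter and the looser gate, and 8 of 2426 tested in v1 alone. With 1 library left out it was 36 to 69 (69 without E17.5 v2). Between days 5565 genes were tested, 16030 with no filter and 2740 with thinned cells. For E17.5 against E14.5 the count was 84. It was 42 with DESeq2, 289 with no filter, 20 with thinned cells, 194 with the stricter gate, 204 with 20 cells per class, 0 in v1 alone (150 genes at an unadjusted p under 0.05 by edgeR) and 0 to 204 with 1 library left out. For E12.5 the count was 12. It was 20 with DESeq2, 94 with no filter, 64 with the stricter gate, 50 with 20 cells per class, 0 in v1 alone (178 genes at an unadjusted p under 0.05) and 1 to 53 with 1 library left out. Of the 13 genes called at E12.5 with thinned cells 1 was shared with the 12. The E17.5 and E12.5 comparisons could not be fitted in v2 alone, which has 1 library a day.

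The median share of early *Fev* cells among endocrine-lineage cells was 11.9%, 6.09% with thinned cells and 10.6% to 13.2% with 1 library left out, an alternative added after seeing the data. *eGFP* was detected in 85.0% of members thinned to 3000 UMIs and in 80.6% under the stricter gate, and *tdTomato* in 1.64% and 7.46%. Of named genes, *Hbb-bs* in the *Neurog3* split turned to 0.0859 without doublet-suspect cells, *Tff3* at E17.5 to 0.11 with the looser gate and *Hba-x* at E12.5 to -2.96 with thinned cells. Of 121 named genes called against *Neurog3* cells, 863 of 902 values with 1 library left out kept their call, as did 281 of 316 for 42 genes called against later *Fev* cells, 285 of 312 for 41 against the mean of both, 128 of 147 for 26 in the *Neurog3* split, 191 of 273 for 40 at E17.5 and 53 of 76 for 11 at E12.5. The cause of these changes was not tested. The members of E12.5 v1 and E17.5 v1, 11 and 23 cells, limit what could be seen by day.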

Other observations

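The E17.5 v2 wells came from the same suspension but differed in *Fev*. Its level was 355 CPM in the 29 members of the first well and 600 CPM in the 59 of the second. It was 23.0 and 46.4 CPM in alpha cells, 7.53 and 16.3 CPM in beta cells, and 15.0 and 18.7 CPM in delta cells. In epsilon cells *Fev* went the other way, at 26.9 and 11.6 CPM, from 11 and 5 UMIs. Later *Fev* cells numbered 7 and 42. *Neurog3* in *Neurog3* cells without *Fev* was at 4387 and 4453 CPM. The first well thus yielded fewer cells past the *Fev* limit in both *Fev* classes, and the reason was not tested.

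*Cldn4*, a tight-junction claudin, had a median of 1075 CPM in early *Fev* cells, 138 CPM in *Neurog3* cells and 797 CPM in later *Fev* cells (log2 fold changes of 2.35 and 0.34, adjusted p = 9.09e-12 and 0.174 by edgeR). It was 1 of 20 adhesion and delamination genes called higher than in *Neurog3* cells, and 3 were called lower (*Amotl2*, *Cldn6* and *Tmsb4x*), where 4.75% and 3.87% of all genes were. *Krt7*, a simple-epithelial keratin of the trunk and duct list, had medians of 988, 922 and 488 CPM in the members, *Neurog3* cells and later *Fev* cells, and was higher than in later cells by 1.05 ± 0.13 on the log2 scale (adjusted p = 2.53e-05 by edgeR).

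Genes that respond to dissociation summed to between 2056 and 12410 CPM in the members. In each library other than Fev-Cre this was more than in *Neurog3* cells. By edgeR none of 12 such genes was called between these classes, with 6 at an unadjusted p under 0.05, and none by DESeq2. Its part in the other differences was not tested.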
